A study of Mus musculus with 9 samples.

Results

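The 6 genes studied here encode enzymes of intermediary metabolism and were followed across hearts after TAC surgery, hearts with a calcineurin transgene and wild-type hearts. They are *Gapdh*, *Ldhal6b*, *G6pd2*, *Gk*, *Hprt* and *Gusb*, and each is represented on the array by 1 probe printed in 20 spots. The members were taken by their RefSeq accession (NM_008084, NM_175349, NM_019468, NM_008194, NM_013556 and NM_010368, in the order above) and by the 20 spots. They make up 6 of the 15 reference-gene probes with 20 spots and 6 of the 59709 different probes outside the controls. All 6 were well above background on all 9 arrays, so that all of them were tested. Near-identical copies of these genes exist in the mouse genome, and cross-hybridization to them was not tested.

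Total RNA of mouse cardiac tissue was hybridised on 9 arrays scanned in 1 channel for long non-coding and messenger RNAs, with 3 arrays in each of 3 groups. The WT and TAC groups carry the strain label B6SV129F1 wild-type, and the TAC arrays are also described by TAC surgery, an abbreviation that in heart studies usually means transverse aortic constriction. The CnA group carries the strain label Myh6-CnA, a name used for mice whose calcineurin A transgene is driven in heart muscle cells by the *Myh6* promoter. No sham operation is named for WT, and the labels state no age, no animal and no time after surgery, so that the replicates may be technical and p-values measure only the spread between these arrays. CnA therefore differs from the other groups by strain label as well as by transgene, and these cannot be told apart. In whole tissue, fewer cells of a type and less RNA per cell cannot be told apart either. None of the 120 symbols in 11 lists of pathway and cell type marker genes could be paired with a probe, since only 116 probes matched a symbol. The labelled tissue was therefore not checked against cardiac markers, and no other gene of these pathways is reported.

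These enzymes sit at different points of metabolism. Gapdh oxidises glyceraldehyde 3-phosphate in glycolysis, and lactate dehydrogenases convert pyruvate to lactate at its end. Glycerol kinase, the product of *Gk*, phosphorylates glycerol released from fat. Hprt returns hypoxanthine and guanine to nucleotides in purine salvage, and Gusb is a lysosomal hydrolase that removes glucuronic acid from glycosaminoglycans. *Gapdh*, *Hprt* and *Gusb* are widely used as reference genes in RNA quantification. *Ldhal6b* and *G6pd2* are intronless genes known for expression in the testis.

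The 6 genes differ in their promoters, which are shown for 3 of them to set a gene with a broad, CpG-rich promoter beside both testis-type genes. The sequences are the 250 bases before the start of the gene in RefSeq (build GRCm38.p6), at chrX:52987828-52988077 on the plus strand for *Hprt*, chr5:61808593-61808842 on the plus strand for *G6pd2* and chr17:5418768-5419017 on the minus strand for *Ldhal6b*. Capitals mark matches on either strand to GGGCGG, the core of a GC box, or to TATAAA, the core of a TATA box.
Hprt: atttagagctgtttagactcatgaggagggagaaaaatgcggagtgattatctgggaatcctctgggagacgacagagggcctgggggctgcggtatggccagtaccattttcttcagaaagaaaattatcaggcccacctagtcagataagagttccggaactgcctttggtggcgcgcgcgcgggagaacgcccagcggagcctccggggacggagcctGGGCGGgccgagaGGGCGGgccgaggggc
G6pd2: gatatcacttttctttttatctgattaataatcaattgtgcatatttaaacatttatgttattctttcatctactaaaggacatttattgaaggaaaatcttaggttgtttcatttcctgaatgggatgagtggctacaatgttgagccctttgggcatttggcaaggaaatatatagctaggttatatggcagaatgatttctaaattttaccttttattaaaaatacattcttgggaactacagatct
Ldhal6b: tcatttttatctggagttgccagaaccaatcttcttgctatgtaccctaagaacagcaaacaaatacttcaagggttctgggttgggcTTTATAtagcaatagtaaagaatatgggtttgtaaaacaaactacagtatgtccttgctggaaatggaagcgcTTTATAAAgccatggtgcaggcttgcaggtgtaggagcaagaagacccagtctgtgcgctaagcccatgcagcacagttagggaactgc
The *Hprt* stretch holds 17 CG dinucleotides and 2 GGGCGG matches, and 59.6% of its bases are G or C. The *G6pd2* stretch holds 0 CG dinucleotides, neither motif, and 30.0% G or C. The *Ldhal6b* stretch holds 2 CG dinucleotides and 3 TATAAA matches, of which a pair overlaps on opposite strands. Among 32851 RefSeq stretches of the same length, the median was 6 CG dinucleotides, 32.7% held GGGCGG and 12.4% held TATAAA. *Gk* had 21 CG dinucleotides, *Gapdh* 8 and *Gusb* 3. All 6 genes had an entry. A match describes these letters only, and the arrays do not measure promoters.

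Arrays differed in brightness by group. The 75th percentile of the processed intensity was 427.3 to 454.3 units on WT arrays, 262.5 to 279.5 on TAC arrays and 283.0 to 300.2 on CnA arrays, and its log2 value differed from WT by -0.72 in TAC and -0.61 in CnA. Values below are scaled log2 signals, which are the log2 intensity minus the 75th percentile of the same array, unless they are called unscaled. On this scale the median of all 44224 tested probes was 0.32 higher in TAC than in WT, 0.22 higher in CnA than in WT and -0.04 in CnA versus TAC. Of the tested probes, 60.1% were called in TAC versus WT, 56.8% in CnA versus WT and 17.4% in CnA versus TAC (limma, adjusted p under 0.05).

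Of the 6 members, 2 were called higher in TAC than in WT, *Gapdh* and *Ldhal6b*, and the same 2 were called higher in CnA than in WT, while none was called lower. Of all probes, 39.6% and 36.2% were called higher in these comparisons and 20.5% lower in each, so that the members' counts lie near the background. The direction of the calls depended on the scaling. With no scaling, 0 members were called higher and 4 lower in each comparison with WT, and with normexp and quantile normalization 0 were higher and 2 lower in TAC versus WT. Between the 2 models 1 member was called, *Gusb*, which was higher in CnA, where 10.5% of all probes were called higher. The F test over the 3 groups called these 3 members, beside 64.3% of all probes. The median log2 fold change of the members was -0.06 in TAC versus WT, 0.12 in CnA versus WT and 0.15 in CnA versus TAC. The groups of 3 did not overlap for 5 of 6 members in TAC versus WT, for 3 in CnA versus WT and for 3 in CnA versus TAC, beside 69.1%, 62.4% and 46.1% of all probes. In TAC versus WT 2 of these members were higher and 3 lower, where 46.6% and 22.5% of all probes were. In CnA versus WT all 3 were higher and 0 lower, where 40.1% and 22.3% were, and in CnA versus TAC 2 were higher and 1 lower, where 21.9% and 24.2% were.

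**Figure D1:**
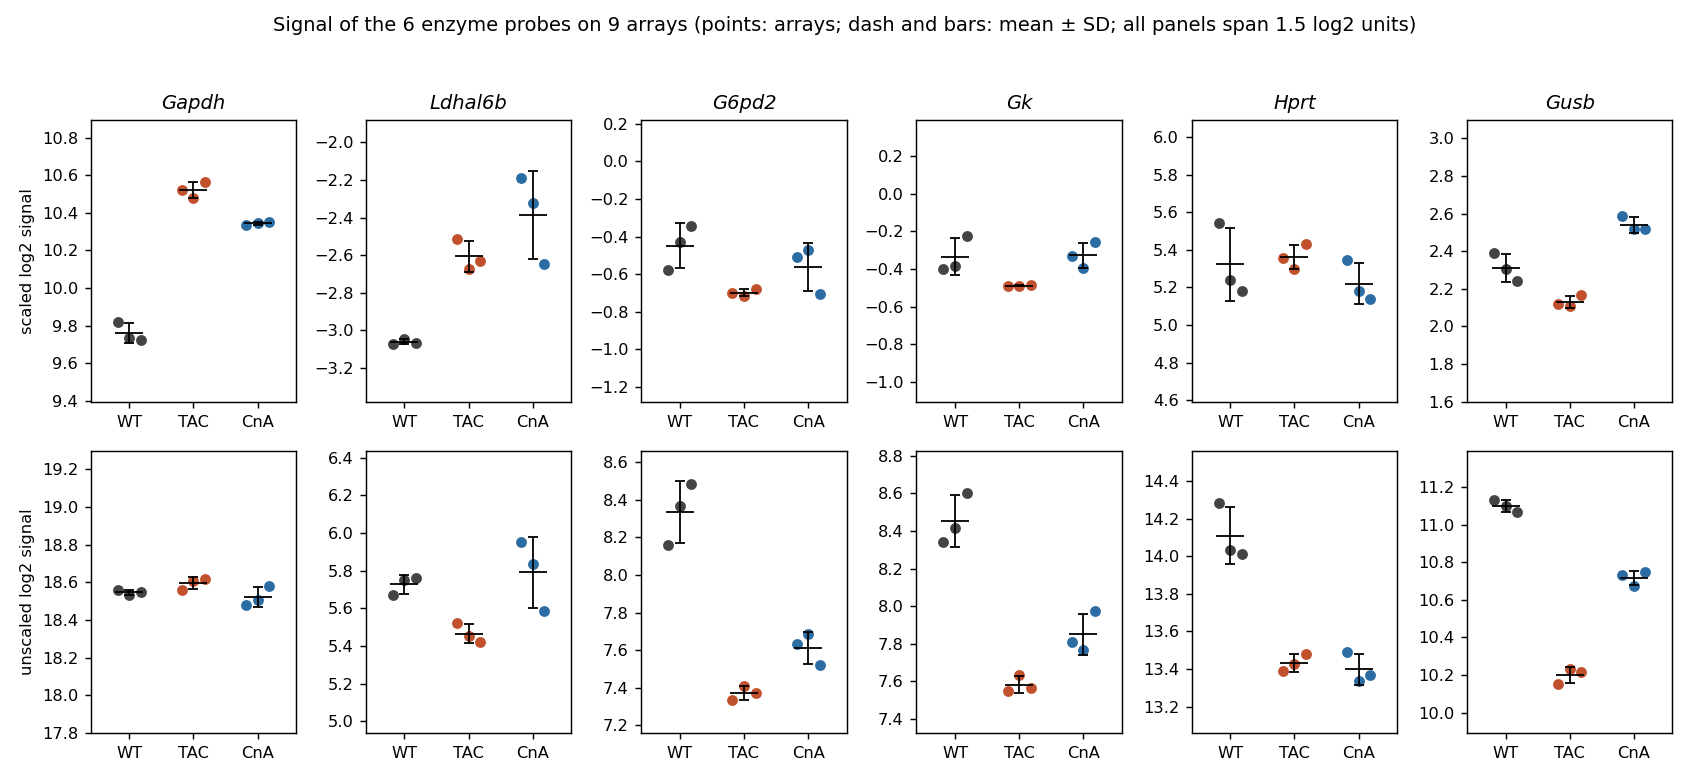
Scaled (top) and unscaled (bottom) log2 signal of each enzyme probe on the 3 arrays of WT, TAC and CnA; points are arrays, and the dash and bars are the mean ± SD of a group (n = 3). *Gapdh* in TAC and CnA lies above WT without overlap on the scaled axis, and overlaps WT on the unscaled axis. *G6pd2*, *Gk*, *Hprt* and *Gusb* lie below WT in both models without overlap on the unscaled axis.

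*Gapdh*, the glycolytic dehydrogenase, had a scaled log2 signal of 9.82, 9.74 and 9.72 on the WT arrays, 10.52, 10.48 and 10.56 on the TAC arrays and 10.34, 10.35 and 10.35 on the CnA arrays. Every TAC array lay above every CnA array, and every CnA array above every WT array. Its log2 fold change was 0.76 in TAC versus WT (standard error 0.08, limma adjusted p = 0.00011) and 0.59 in CnA versus WT (standard error 0.08, limma adjusted p = 0.00057), or 0.45 and 0.36 relative to the median of all probes. The neighbours TAC and CnA differed by -0.18, with a 95% interval of -0.37 to 0.02 (limma adjusted p = 0.19). The TAC and CnA arrays did not overlap, and this difference did not pass the threshold of the test. Both calls versus WT held when any single array was left out, with fold changes of 0.74 to 0.79 in TAC and 0.57 to 0.62 in CnA.

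The *Gapdh* rise depended on how the arrays were scaled. Before scaling its log2 signal was 18.56, 18.53 and 18.55 in WT, 18.56, 18.61 and 18.62 in TAC and 18.48, 18.51 and 18.58 in CnA. The groups overlapped, and all 9 arrays lay within 0.14 log2 units. The unscaled difference was 0.05 in TAC versus WT (limma adjusted p = 0.67) and -0.02 in CnA versus WT (limma adjusted p = 0.82). The scaled rise thus came close in size to the difference in the 75th percentile between the groups. Between 37 and 49 of the 59709 probes were brighter than *Gapdh* on an array, and quantile normalization, the setting that matches the deposited tables, left 0.02 in TAC and 0.03 in CnA (limma adjusted p = 0.83 and 0.78), while 55.8% and 53.4% of all probes were called under it. Unscaled, 54.9% and 56.1% of all probes were called. The brightest *Gapdh* spot reached 417066 intensity units, where the file headers give 778114 as the saturation value on 8 of the 9 arrays, and no spot was marked as saturated. Whether the signal was still proportional to RNA at that brightness was not tested.

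*Ldhal6b*, a lactate dehydrogenase A-like gene, lay at -3.07, -3.04 and -3.06 in WT, -2.51, -2.67 and -2.63 in TAC and -2.19, -2.32 and -2.64 in CnA. All TAC and CnA arrays were above all WT arrays, and TAC and CnA overlapped. Its log2 fold change was 0.45 in TAC versus WT (standard error 0.13, limma adjusted p = 0.015) and 0.67 in CnA versus WT (standard error 0.13, limma adjusted p = 0.0024), or 0.14 and 0.45 relative to the median of all probes. The difference between CnA and TAC was 0.22, with an interval of -0.07 to 0.51. It had opposite signs in the 2 slide rows, at -0.13 in the first and 0.40 in the second. The first holds 1 TAC and 1 CnA array, from different scans, and the second 2 of each. The CnA array of the first row, CnA replicate 3, has the same row and column as WT replicate 1, so these cannot share a slide. The TAC call was lost without TAC replicate 1 (0.41, limma adjusted p = 0.056), with the slide row as a block (0.37, limma adjusted p = 0.089) and with normexp and quantile normalization together (0.15, limma adjusted p = 0.077), under which 55.6% of all probes were called. The CnA call held in all of the settings that scale the arrays.

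The *Ldhal6b* signal was close to that of the negative control probes. Before scaling it amounted to 42.8 to 62.0 intensity units, and on each array between 2 and 4 of the 20 negative control probes were brighter. The unscaled log2 signal was 5.67, 5.75 and 5.76 in WT, 5.52, 5.45 and 5.42 in TAC and 5.95, 5.84 and 5.59 in CnA. The TAC arrays were thus lower than the WT arrays before scaling and higher after it. Scaled in the same way, 17 of the 20 negative controls were higher in TAC than in WT, with a median difference of 0.52, and 15 of 20 were higher in CnA than in WT, with a median of 0.29. The 3 negative controls within 1 log2 unit of *Ldhal6b* differed by 0.54, 0.77 and 0.73 in TAC versus WT and by 0.46, 0.65 and 0.43 in CnA versus WT. The part of this background in the *Ldhal6b* result was not tested further.

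*G6pd2* was at -0.58, -0.43 and -0.34 in WT, -0.70, -0.72 and -0.68 in TAC and -0.51, -0.47 and -0.71 in CnA. The TAC arrays were below all WT arrays, and CnA overlapped both. The difference was -0.25 in TAC versus WT (95% interval -0.49 to -0.0051, limma adjusted p = 0.072), -0.11 in CnA versus WT (interval -0.36 to 0.13) and 0.14 in CnA versus TAC (interval -0.11 to 0.38). None passed the threshold. The TAC difference passed it without WT replicate 1 (-0.31, limma adjusted p = 0.025), with the median as the scaling (-0.34, limma adjusted p = 0.021), with normexp and quantile normalization (-0.21, limma adjusted p = 0.041) and with array weights (-0.28, limma adjusted p = 0.0088). The probe lay 0.26 to 0.86 log2 units above the brightest negative control.

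*Gk*, the glycerol kinase gene, was at -0.40, -0.38 and -0.22 in WT, -0.49, -0.49 and -0.48 in TAC and -0.33, -0.39 and -0.26 in CnA. The CnA arrays lay within the range of the WT arrays, and the TAC arrays were below both. The difference was -0.15 in TAC versus WT (interval -0.37 to 0.06), 0.01 in CnA versus WT (interval -0.21 to 0.22) and 0.16 in CnA versus TAC (interval -0.05 to 0.37). The limma adjusted p-values were 0.18, 0.96 and 0.28. *Gk* was not called in any comparison under any setting that scales the arrays. It exceeded the brightest negative control by 0.48 to 1.06 log2 units.

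*Hprt*, the purine salvage enzyme, was at 5.54, 5.24 and 5.18 in WT, 5.35, 5.30 and 5.43 in TAC and 5.34, 5.18 and 5.14 in CnA. The 3 groups overlapped, and WT replicate 1 was the highest array. The differences were 0.04 in TAC versus WT (interval -0.24 to 0.32), -0.10 in CnA versus WT (interval -0.38 to 0.18) and -0.14 in CnA versus TAC (interval -0.42 to 0.14), with limma adjusted p-values of 0.80, 0.50 and 0.48. This result also turned on the scaling. Under quantile normalization *Hprt* was lower in both models, at -0.47 in TAC and -0.53 in CnA (limma adjusted p = 0.0020 and 0.0011), and unscaled it was lower at -0.68 and -0.71. Scaled to the mean of the other 9 reference-gene probes, it was higher in TAC by 0.32 (limma adjusted p = 0.017).

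*Gusb*, the lysosomal hydrolase, was at 2.39, 2.30 and 2.24 in WT, 2.12, 2.11 and 2.17 in TAC and 2.59, 2.52 and 2.52 in CnA. The order was CnA above WT above TAC, with no overlap between any groups. CnA exceeded TAC by 0.41 (standard error 0.09, limma adjusted p = 0.015), a 1.33-fold difference, or 0.45 relative to the median of all probes. The neighbours in that order did not differ at the threshold, with -0.18 in TAC versus WT (interval -0.38 to 0.02, limma adjusted p = 0.11) and 0.23 in CnA versus WT (interval 0.03 to 0.43, limma adjusted p = 0.054). Over 23 settings that scale the arrays, the first was called in 3 and the second in 7. In the second row of the slide, with 2 arrays a group, CnA exceeded TAC by 0.41. The first row holds all WT arrays, 1 TAC array and 1 CnA array. These TAC and CnA arrays differed by 0.40 and were scanned separately. That CnA array has the same row and column as WT replicate 1, so it cannot share a slide with it.

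The size of the *Gusb* difference varied little and its call varied more. It was 0.29 to 0.43 over 23 settings that scale the arrays, the reported one included, and was called in 18 of them. The call was lost without TAC replicate 1 (0.40, limma adjusted p = 0.063), without TAC replicate 2 (0.40, limma adjusted p = 0.068), without CnA replicate 1 (0.39, limma adjusted p = 0.061), with the replicate number as a block (0.41, limma adjusted p = 0.054) and with scaling to the other 9 reference-gene probes (0.29, limma adjusted p = 0.054). Before scaling, *Gusb* was 11.13, 11.10 and 11.07 in WT, 10.15, 10.23 and 10.22 in TAC and 10.73, 10.67 and 10.75 in CnA. The difference between CnA and TAC was then 0.52 (limma adjusted p = 0.0044), and both models were below WT. With normexp and quantile normalization it was 0.39 (limma adjusted p = 0.0026), where 18.7% of all probes were called, and with quantile normalization alone 0.41 (limma adjusted p = 0.0093), where 18.1% were.

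**Figure D2:**
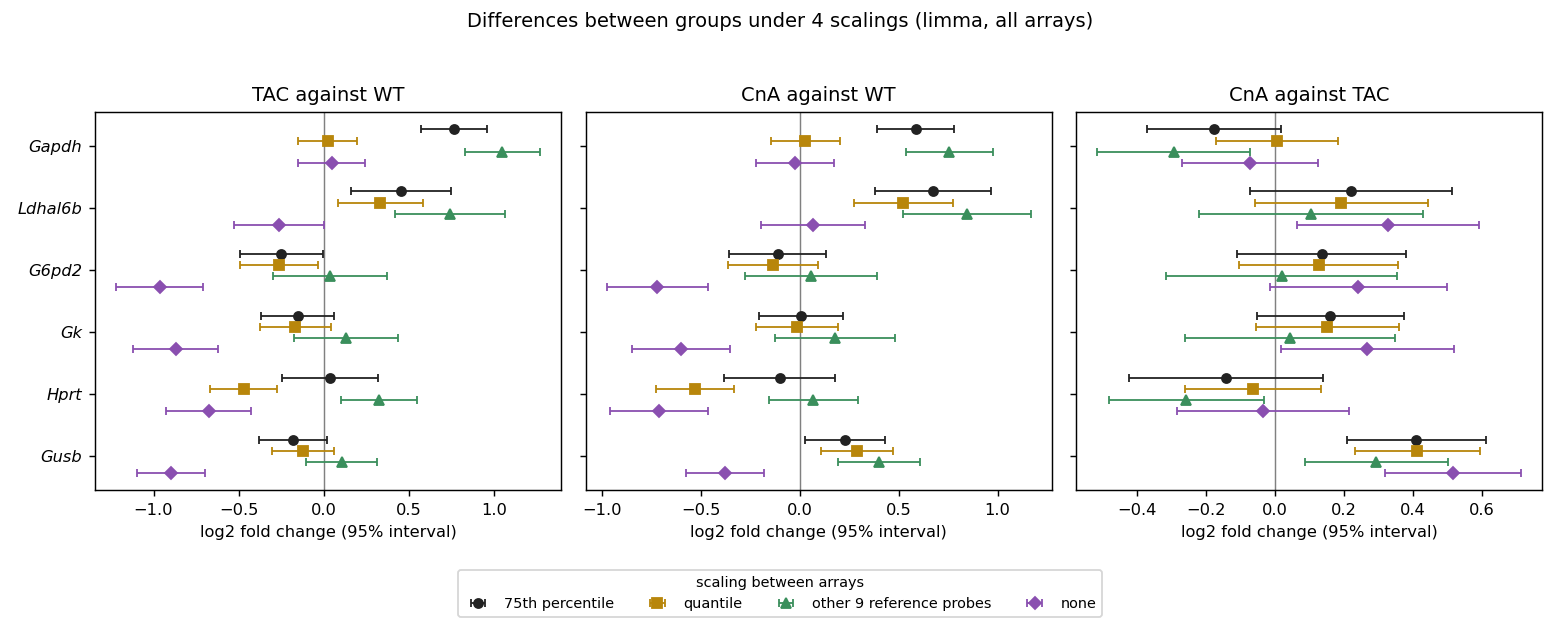
Log2 fold change of each enzyme probe with its 95% interval (limma, all arrays) when arrays are scaled to the 75th percentile, by quantile normalization, to the other 9 reference-gene probes or not at all. *Gusb* is above 0 in CnA versus TAC under all 4 settings (0.29 to 0.52), while *Gapdh* in TAC versus WT runs from 0.02 to 1.05.

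On the 75th percentile scale, members had a narrower range over the 9 arrays than most probes. The range of the scaled log2 signal was 0.27 for *Gk*, 0.37 for *G6pd2*, 0.41 for *Hprt* and 0.48 for *Gusb*, against a median range of 1.26 over all tested probes. It was 0.84 for *Gapdh* and 0.88 for *Ldhal6b*. The range was wider for 99.6% of the probes than for *Gk*, 98.0% than for *G6pd2*, 97.1% than for *Hprt*, 94.8% than for *Gusb*, 73.8% than for *Gapdh* and 71.3% than for *Ldhal6b*. The order of the members changed with the scaling. Unscaled, *Gapdh* had the narrowest range at 0.14, followed by 0.53 for *Ldhal6b*, 0.95 for *Hprt*, 0.98 for *Gusb*, 1.06 for *Gk* and 1.15 for *G6pd2*. Under quantile normalization *Gapdh* spanned 0.08, *Gk* 0.28, *G6pd2* 0.38, *Gusb* 0.47, *Hprt* 0.68 and *Ldhal6b* 0.72. Nearly all other probes have 1 spot, which adds spot noise to their range. The other 9 reference-gene probes have 20 spots as well. On the 75th percentile scale, their median absolute log2 fold change was 0.83 in TAC versus WT and 0.81 in CnA versus WT. It was 0.22 and 0.17 for the members. Of these 9 probes, 7 were called in TAC versus WT and 7 in CnA versus WT on that scale. This contrast was computed on that scale only, and whether it holds on another was not tested. Unscaled, the median log2 fold change of the members was -0.77 in TAC versus WT and -0.49 in CnA versus WT, and the other 9 were not compared unscaled.

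**Figure D3:**
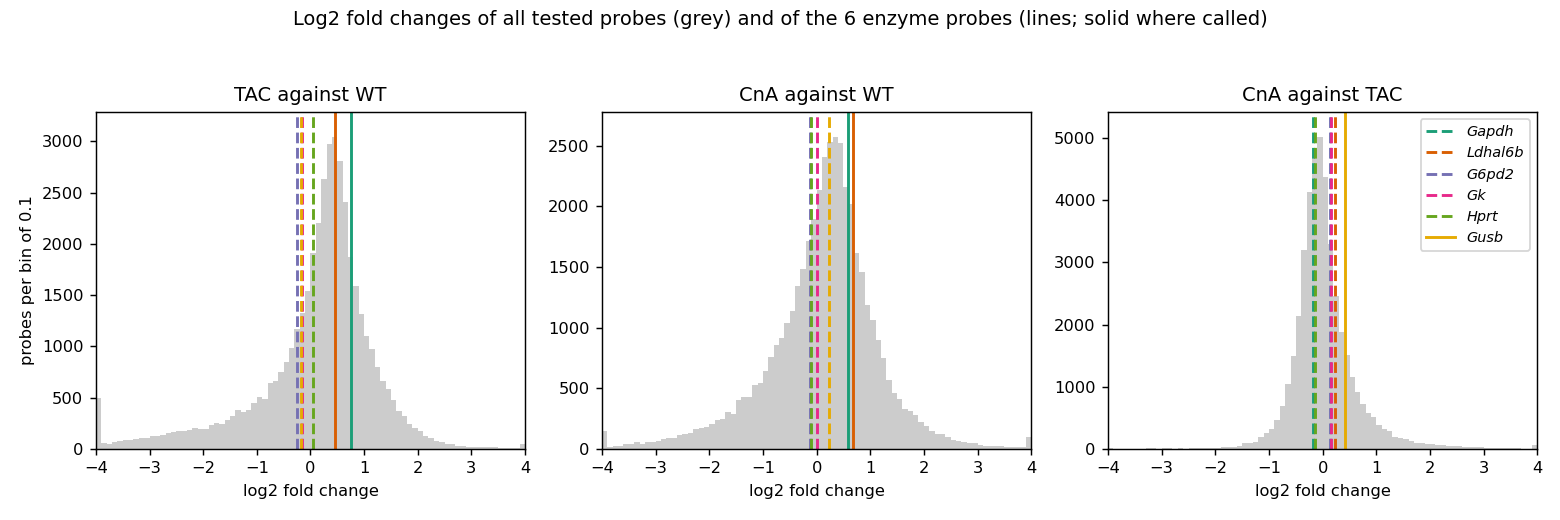
Distribution of the log2 fold changes of 44224 tested probes (grey, bins of 0.1, values beyond 4 in the end bins) with each enzyme probe as a line, solid where called. In TAC versus WT the lines of *G6pd2*, *Gusb*, *Gk* and *Hprt* lie left of the median of 0.32 and those of *Gapdh* and *Ldhal6b* right of it.

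Ratios of members within an array do not depend on the scaling to a percentile, though quantile normalization changes them. In TAC versus WT it gave 0.02 for *Gapdh*, beside -0.26 for *G6pd2*, -0.17 for *Gk*, -0.47 for *Hprt* and -0.12 for *Gusb*. In CnA versus WT it gave 0.03, -0.14, -0.015, -0.53 and 0.29 in the same order of genes. *Gapdh* over *Gusb* thus fell in CnA versus WT under quantile normalization, and rose by 0.36 without it. The ratios below are without it, and 15 pairs were compared in 3 comparisons, 45 in all. A call needed an adjusted p under 0.05 over all probes of a limma fit in which every array was scaled to the second gene of the pair. In TAC versus WT, 8 of 15 pairs were called, and these were *Gapdh* and *Ldhal6b*, each over *G6pd2*, *Gk*, *Hprt* and *Gusb*. The 4 pairs with *Ldhal6b* are limited by its signal, since 2 to 4 of the 20 negative controls were brighter and the 3 controls near its level differed by 0.54 to 0.77 in TAC versus WT, against 0.45 for *Ldhal6b*. They are not read as a change of that gene. The *Gapdh* pairs carry a limit too, since whether its signal was proportional to RNA at its brightness was not tested. Unscaled, *Gapdh* differed by 0.05 in TAC versus WT and *G6pd2* by -0.96. Both *G6pd2* and *Gk* lay near the negative controls, which limits their pairs. *Gapdh* over *G6pd2* rose most, by 1.01 (standard error 0.14, limma adjusted p = 0.00028), and *Ldhal6b* over *Hprt* least, by 0.42 (standard error 0.14, limma adjusted p = 0.038). All probes were called at 67.9% in the fit scaled to *G6pd2*, 65.2% to *Gk*, 52.9% to *Hprt* and 68.4% to *Gusb*. The ratio of *Gapdh* to *Ldhal6b* changed by 0.31 (95% interval -0.06 to 0.68, limma adjusted p = 0.17), where 39.8% of all probes were called. Ratios among *G6pd2*, *Gk*, *Hprt* and *Gusb* were called in none of their 6 pairs in TAC versus WT, with changes between -0.29 and 0.22.

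In CnA versus WT, 10 of 15 pairs were called, the same 8 and both *G6pd2* and *Hprt* over *Gusb*. *Ldhal6b* over *G6pd2* rose by 0.79 (standard error 0.14, limma adjusted p = 0.0012), and *G6pd2* over *Gusb* fell by 0.34 (standard error 0.12, limma adjusted p = 0.045). The pairs with *Ldhal6b* carry the same limit here. The 3 controls near its level differed by 0.43 to 0.65 in CnA versus WT, against 0.67 for *Ldhal6b*. Pairs with *G6pd2* or *Gk* are limited too. These genes lay only 0.26 to 0.86 and 0.48 to 1.06 log2 units above the brightest negative control. *Gapdh* over *Ldhal6b* changed by -0.09 and was not called, where 52% of probes were. The share of all probes called in these fits was 55.4% scaled to *G6pd2*, 53.3% to *Gk*, 55.9% to *Hprt* and 50.1% to *Gusb*. In CnA versus TAC, 2 of 15 pairs were called, and in both *Gusb* was the gene that was relatively higher in CnA. *Gapdh* over *Gusb* fell by 0.59 (standard error 0.08, limma adjusted p = 0.0013) and *Hprt* over *Gusb* fell by 0.55 (standard error 0.10, limma adjusted p = 0.0031), where 52% of all probes were called. In the other fits of this comparison 17% of probes were called scaled to *Ldhal6b*, 15.1% to *G6pd2*, 19.8% to *Gk* and 14.9% to *Hprt*. None of their pairs passed over all probes of these fits. Over the 45 pair comparisons alone, an adjusted p under 0.05 was reached by 21, beside 20 in the fits. The added pair was *Gapdh* over *Gk* in CnA versus TAC, which fell by 0.34 (limma p adjusted over the 45 pairs = 0.038, and 0.067 over all probes). A changed ratio shows unequal change, and not which gene moved.

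**Figure D4:**
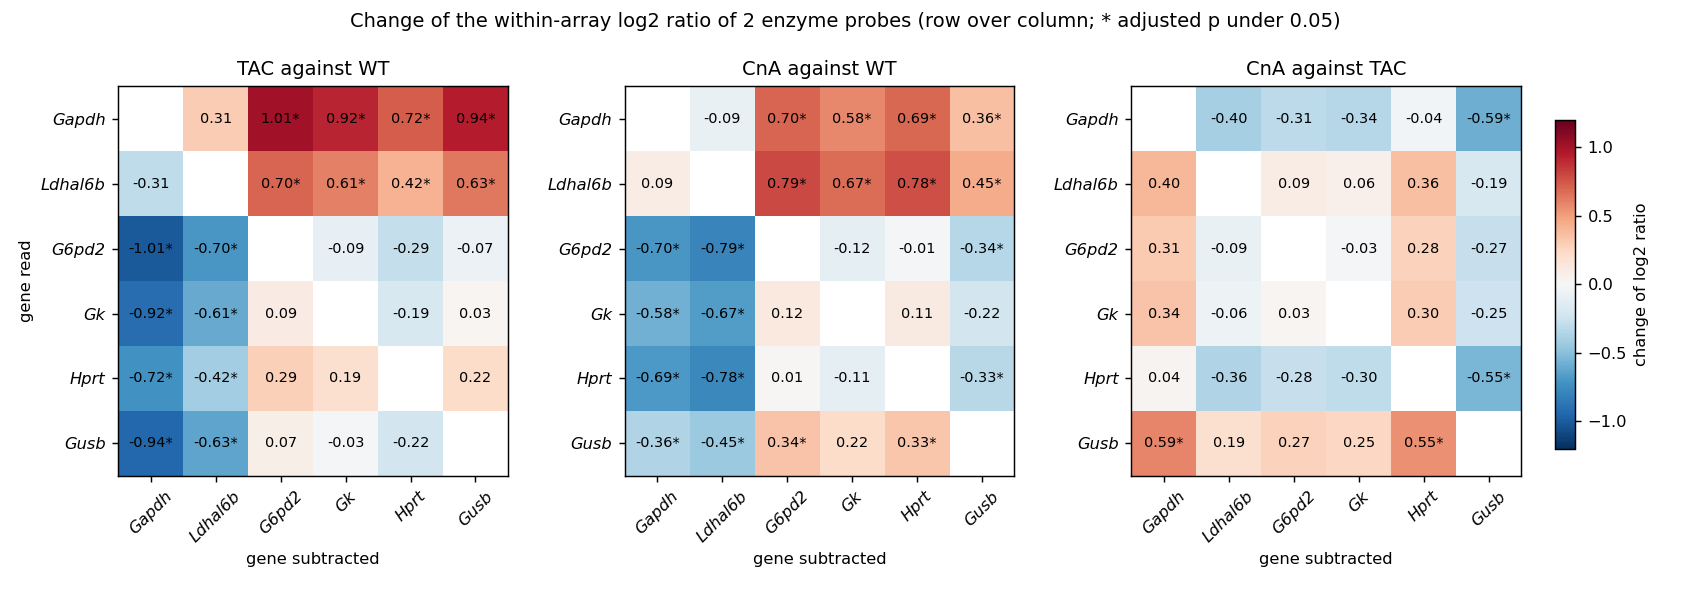
Change between groups of the log2 ratio of 2 enzyme probes on the same array, as the row gene over the column gene, with an asterisk where called. No quantile normalization was applied. In both comparisons with WT the *Gapdh* and *Ldhal6b* rows are positive against the other 4 genes (0.36 to 1.01), and in CnA versus TAC the called cells are *Gusb* against *Gapdh* and *Hprt*.

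Scaling every array to 1 member shifts all probes by that member's own change, so the shares below restate the fold changes above as they bear on the array and are no further evidence. Scaled to *Gapdh*, 57.7% of probes were called, and 8.71% were called higher and 49.0% lower in TAC than in WT, with a median log2 fold change of -0.45. Scaled to *Hprt*, 33.3% were higher and 19.5% lower, with a median of 0.28, and scaled to *Gusb*, 50.9% were higher and 17.5% lower, with a median of 0.50. The 75th percentile gave 39.6% higher and 20.5% lower. *Gk* and *G6pd2* as references gave 47.5% and 51.8% higher and 17.7% and 16.1% lower. Scaled to *Ldhal6b*, whose signal is near that of the negative controls, 11.6% were higher and 28.2% lower.

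The same held for CnA versus WT, where *Gapdh* as the reference called 55.5%, with 12.1% higher and 43.3% lower, *Hprt* 39.4% higher and 16.6% lower, and *Gusb* 23.8% higher and 26.3% lower. In CnA versus TAC, scaling to *Gusb* gave 5.51% higher and 46.5% lower, where the 75th percentile gave 10.5% and 6.89%. *Gapdh* as the reference called 19.8%, with 16.5% higher and 3.34% lower in that comparison, and *Hprt* gave 11.6% and 3.25%.

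**Figure D5:**
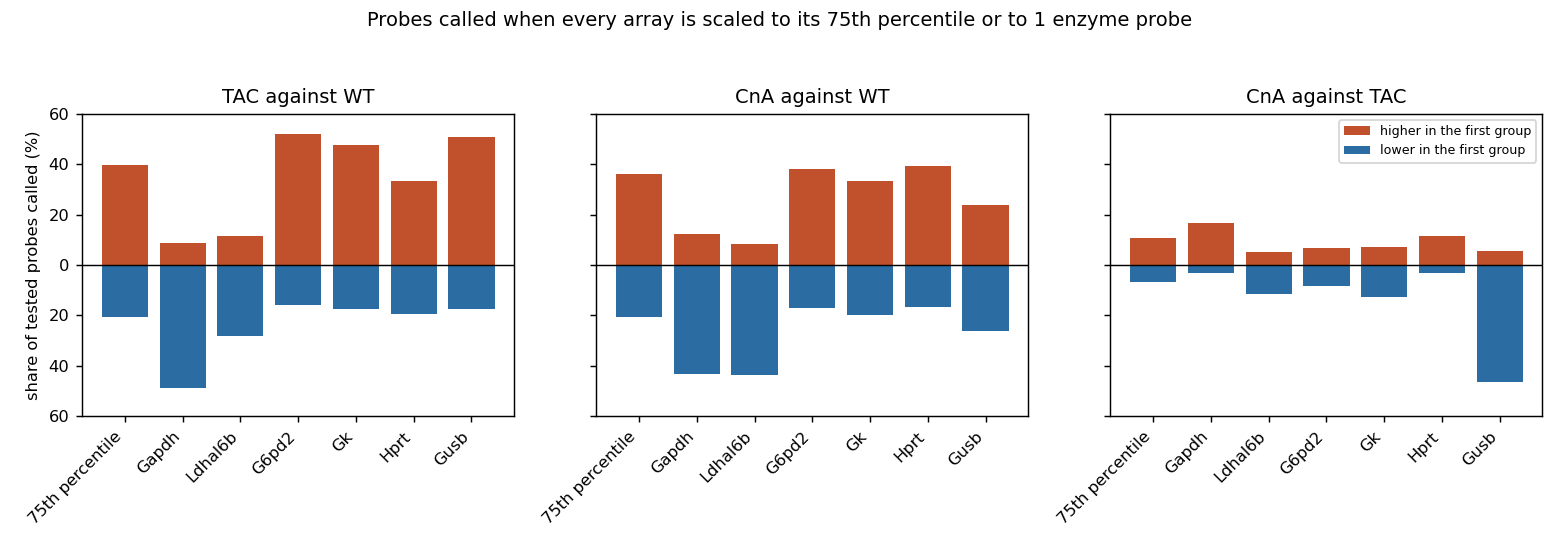
Share of the tested probes called higher (above 0) or lower (below 0) in the first group named when every array is scaled to its 75th percentile or to 1 enzyme probe. Bars for *Gapdh* as the reference point mostly down in both comparisons with WT (49.0% and 43.3% lower), and those for *Hprt* mostly up (33.3% and 39.4% higher).

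The probes most like each member were sought among 75 probes that have a symbol, are no member and were well above background on all 9 arrays, by the Pearson correlation of scaled log2 signals. The 9 arrays of a probe share the scaling and the 3 groups, so the correlations are descriptions only. For *Gapdh* these were *H2ac18* (r = 0.99) and *Disp1* (r = 0.99), which rose by 2.31 and 1.96 in TAC versus WT (limma adjusted p = 2.7e-06 and 3.2e-06). For *Ldhal6b* they were *Amy2a5* (r = 0.96) and *Gm20809* (r = 0.95). For *Gusb* both were probes of *Ppp2r3d* (r = 0.94 and 0.92), which were higher in CnA than in TAC by 0.60 and 0.53 (limma adjusted p = 0.012 and 0.024). The nearest to *G6pd2* were *Tbp* (r = 0.87) and *Zfp131* (r = 0.80), to *Gk* *Zfp131* (r = 0.88) and *Hsp90ab1* (r = 0.70), and to *Hprt* *B2m* (r = 0.78) and *Tcstv3* (r = 0.69). Among the members, the highest correlation over the 9 arrays was that of *Gapdh* with *Ldhal6b* (r = 0.78) and the lowest that of *Gapdh* with *G6pd2* (r = -0.76).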

How the data were processed

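The deposited scanner files of 9 arrays were used. Per the file headers, they were made with Agilent Feature Extraction 11.0 in 1 channel, and the probes were designed on genome build mm9. Another dye is named in the labels, and no values of it were used. The deposited processed signal is an intensity on a linear scale, background-subtracted and detrended within the array per the file headers, and not scaled between arrays. The authors also deposited tables of log2 values, whose making is not given in the sources used here. They match quantile-normalized log2 signals with a median difference of at most 0.0054 per array, and they hold none of the 6 members. Flags of the software marked spots as outliers or as well above background.

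Control and negative control spots and spots flagged as outliers were left out, and the spots of a probe were averaged as log2. A probe was well above background when most of its unflagged spots were. The 75th percentile of each array was subtracted. Tested were the 44224 probes that passed this in every array of any group. They were fitted with limma 3.58.1 in R 4.3.3 (lmFit and eBayes, 1 coefficient per group, all 9 arrays), and Benjamini-Hochberg adjusted p-values were taken across these probes. The fits were tested on simulated data. The array number limits precision. For ratios, the log2 value of 1 member was subtracted on each array before the same fit. An exact permutation test of 3 against 3 arrays cannot go below p = 0.1 and was not used.

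The single probes named are the 6 members and, for each, the 2 most correlated probes with a symbol. Symbols came from RefSeq (GRCm38.p6, for names and promoters only). The members and lists were chosen with earlier results of these data known. Alternatives were other scalings, background corrections, filters, spot averages, array weights, blocks and leaving out each array. Scaling to no array value was chosen after seeing the data.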

Additional observations from a re-analysis of the deposited data

Results flagged for a closer look

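*Gusb* was singled out because its differences from WT in the 2 models differ from each other by a test of that difference. The difference from WT in CnA less that in TAC was 0.41 log2 units (limma adjusted p = 0.015), which is the comparison of CnA with TAC, and it was higher in 3 of 3 CnA arrays than in every TAC array. The test shares its arrays with the comparison in the report and is no independent support. The difference over all settings that scale the arrays ran from 0.29 to 0.43, with limma adjusted p from 0.0011 to 0.068.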

How the results depend on the processing

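Each group had 3 arrays, and all results rest on differences between these arrays. Signals near the negative controls (*Ldhal6b*, *G6pd2* and *Gk*) and the very bright *Gapdh* signal limit what a difference can show. Of 396 values of 18 member differences under the planned settings, 344 kept their direction and their side of the threshold, 22 turned in sign, 12 lost the threshold and 18 passed it. Of the 22 that turned, 20 were not called. The cause was not tested in any case below unless stated.

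The number of members called in TAC versus WT was 2, and it was 4 with the median as the scaling, 4 with array weights, 1 with the slide row as a block, and 1 to 3 when an array was left out, with 1 without TAC replicate 1. With no scaling between arrays it was 4, and also 4 in CnA versus WT. In both comparisons these were *G6pd2*, *Gk*, *Hprt* and *Gusb*, all lower, and neither of the 2 reported members, *Gapdh* and *Ldhal6b*. In CnA versus WT the number was 2 to 3 when an array was left out. In CnA versus TAC the number was 1, and it was 0 with scaling to the other 9 reference-gene probes, 2 with array weights, 0 with the replicate block, and 0 to 1 when an array was left out. It was 0 without TAC replicate 1, without TAC replicate 2 and without CnA replicate 1. In each of these limma fits with 0 members, *Gusb* kept an unadjusted p under 0.05, as 1 member alone except with the other 9 reference-gene probes, where *Gapdh* and *Hprt* did too (3 members). The pairs called were 20, and 35 with array weights, 14 with the row block and 16 (without CnA replicate 2) to 25 (without WT replicate 1) when an array was left out. Quantile normalization also gave 20, but it changed the ratios, so the equal count does not mean equal ratios.

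The sign of *Hprt* in TAC versus WT (0.04) turned under quantile normalization (-0.47), median scaling (-0.056), normexp (-0.072), normexp with quantile normalization (-0.46), the row block (-0.0067), no scaling (-0.68) and when an array was left out (-0.031 to 0.15). In CnA versus WT (-0.10) it turned with the other 9 reference-gene probes (0.067), array weights (0.013) and an array left out (-0.17 to 0.0081). *Gk* in CnA versus WT (0.01) turned under quantile normalization (-0.015), median scaling (-0.11), the median over spots (-0.090), normexp with quantile normalization (-0.013), no scaling (-0.60) and an array left out (-0.029 to 0.062). With the other 9 reference-gene probes as the scale, *G6pd2* was 0.036, *Gk* 0.13 and *Gusb* 0.10 in TAC versus WT, and *G6pd2* was 0.055 in CnA versus WT. *Gapdh* in CnA versus TAC (-0.18) was 0.0060 under quantile normalization. With no scaling, *Ldhal6b* in TAC versus WT was -0.26, *Gapdh* in CnA versus WT -0.024 and *Gusb* in CnA versus WT -0.38.

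Same-numbered arrays of different groups did not deviate together, with correlations of deviations from the group means of -0.22 to -0.02, and the numbers were not taken to pair the arrays. With the replicate block 2 members were called in TAC versus WT, 2 in CnA versus WT and 0 in CnA versus TAC, and 18 pairs. The row on the slide holds all WT arrays in the first row, and CnA replicate 3 alone was on a second scan, so that a scan block equals leaving it out. CnA replicate 3 has the same row and column as WT replicate 1, so these arrays cannot share a slide. The row block still counts them in the same row.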

Other observations

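The 20 spots of a probe agreed best for the brightest probes. The SD of log2 signals over the unflagged spots of an array had a median of 0.028 for *Gapdh*, 0.095 for *Gusb* and 0.12 for *Hprt*, against 0.37 for *Ldhal6b*, 0.34 for *G6pd2* and 0.43 for *Gk*. The widest spot SD was 0.73, for *Ldhal6b* on CnA replicate 3, which was also the lowest CnA array for that gene. Of 180 spots per probe over the 9 arrays, 17 of *Gapdh*, 11 of *Ldhal6b*, 6 of *Hprt* and 1 of *G6pd2* were flagged as outliers, and 0 of *Gk* and *Gusb*. Spots of 1 array are not replicates of a condition.

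The 20 negative control probes, with 60 spots each, enter no comparison. Of these, 5 were well above background on all 9 arrays and 11 on none.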
